A study of Mus musculus with 77 samples.

Results

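The angiopoietin and Tie receptor system was followed in the retinas of mice with oxygen-induced retinopathy (OIR) and of control mice. Its 5 genes were *Angpt1*, *Angpt2*, *Tek*, *Tie1* and *Ptprb*, chosen as all probes that are not controls and whose transcript carries 1 of these symbols. They had 6 of the 55681 such probes on the array, and they were 5 of the 21154 genes with a symbol. *Ptprb* had a pair of probes, named here *Ptprb* and the second *Ptprb* probe, in order of brightness, and each other gene had 1 probe. All mice were C57BL/6. OIR mice had breathed hyperoxia (75% oxygen) for the 5 days up to P12, control mice stayed at 21% oxygen throughout (normoxia), and retinas were taken on P12, P17 or P28. The OIR group had 13 mice at each age, and the control group had 12, 12 and 14 in order of age. Each mouse gave 1 array for its pooled retinas. Each litter went whole to 1 oxygen level and its pups were spread over the ages, so mice of different days can share a litter. Mice of the same day and oxygen level can share one too, since the paper lists fewer litters than mice for most of these groups. The litter of a mouse is not given and could not enter the tests.

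Angiopoietins are secreted ligands of the endothelial receptor tyrosine kinase Tie2, which is encoded by *Tek*. *Angpt1* encodes the agonist, made mainly by mural and other perivascular cells, which stabilizes vessels and tightens their junctions. *Angpt2* encodes a ligand that endothelial tip cells, and in the retina also horizontal cells, release, and that weakens Tie2 signaling in many settings and so loosens vessels for sprouting. *Tie1* encodes an orphan receptor that pairs with Tie2 and modulates its response, and *Ptprb* encodes VE-PTP, an endothelial phosphatase that removes phosphate groups from Tie2. In the OIR model the central retinal capillaries are lost in hyperoxia and regrow, partly as abnormal tufts, after the return to room air.

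The promoters of both receptor genes are shown since *Tie1* and *Tek* encode partner receptors of the same cells. *Tie1* was called on P17 on part of the scales. *Tek* was called on no day, but it was too dim to be compared on P12 and P17. RefSeq promoter sequences (GRCm38.p6) were found for 2 of the 5 members. The 250 bases before the gene start follow, read in the direction of the gene, with every match to a searched motif in capitals.
Tie1 (chr4:118489850-118490099, minus strand): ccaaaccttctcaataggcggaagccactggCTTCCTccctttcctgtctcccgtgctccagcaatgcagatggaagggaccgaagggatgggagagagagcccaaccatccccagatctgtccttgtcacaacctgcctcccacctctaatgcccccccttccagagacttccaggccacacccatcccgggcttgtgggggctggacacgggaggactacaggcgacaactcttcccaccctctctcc
Tek (chr4:94739039-94739288, plus strand): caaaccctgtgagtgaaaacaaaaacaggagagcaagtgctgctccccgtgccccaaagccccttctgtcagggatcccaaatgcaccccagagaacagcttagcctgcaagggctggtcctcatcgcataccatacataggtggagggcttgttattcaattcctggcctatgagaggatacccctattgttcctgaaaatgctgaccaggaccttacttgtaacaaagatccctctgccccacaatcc
Both strands were searched for the letters AGGAAG of ETS factors. They were also searched for the letters GTAAACA of forkhead factors. The core of the hypoxia response element was searched as ACGTG. The letters of GATA factors were AGATAA, and no match overlapped another. The *Tie1* window held the ETS letters 1 time, on the other strand, and the *Tek* window held no match. Of all 32851 promoters of this length, 29.5% held the ETS letters, 3.17% those of forkhead factors, 16.6% the hypoxia core and 9.99% those of GATA factors. These matches are a description of the letters and not of binding.

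In all, 3 scales are given for each gene. The offset ratio, on which all main tests rest, is the log2 ratio of retina to a universal mouse reference RNA after an intensity of 50 was added to both channels, which draws the ratios of dim probes toward 0. The deposited ratio is the log2 ratio of the table of the study, without such an addition, and the retina channel alone is the log2 intensity of the retina without the reference. The labels place the retina in Cy5 and the reference in Cy3. In the files, Cy3 was the brighter dye for the rod genes *Gnat1*, *Pde6b* and *Sag* on all 77 arrays, by at least 4.18 on the log2 scale, so that Cy3 was taken as the retina. All signs given here therefore oppose the labels and follow the direction of the deposited table.

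Several of the genes were dim. A probe counts as well above background where the scanner software marked it so. *Ptprb* was well above background in the retina of all 77 mice, *Angpt2* in 60 and *Angpt1* in 28. *Tie1* reached this level in 7 of 12 control and 1 of 13 OIR mice on P12, and in 5 of 12 control and 10 of 13 OIR mice on P17. *Tek* was well above background in none of the 50 mice of P12 and P17 and in 9 control and 10 OIR mice of P28, and it was in the reference of no array. In the reference, *Tie1* and the second *Ptprb* probe were also well above background on no array and *Ptprb* on 4 of 77, so the size of their ratios rests on a reference at background. The arrays of P28 were brighter as a whole, with a median of 32499 probes well above background against 20445 on P17, and more of them were scanned in the same scan as one another (11 of 13 OIR and 9 of 14 control arrays in the last of 4 scans). Age and scan can therefore only in part be told apart. Slides that held both groups carried 11 of 13 OIR and 12 of 12 control mice on P12, 12 of 13 and 8 of 12 on P17, and 11 of 13 and 8 of 14 on P28. In the reference channel alone, no member passed the adjusted limma test between OIR and control mice on any day.

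**Figure D1:**
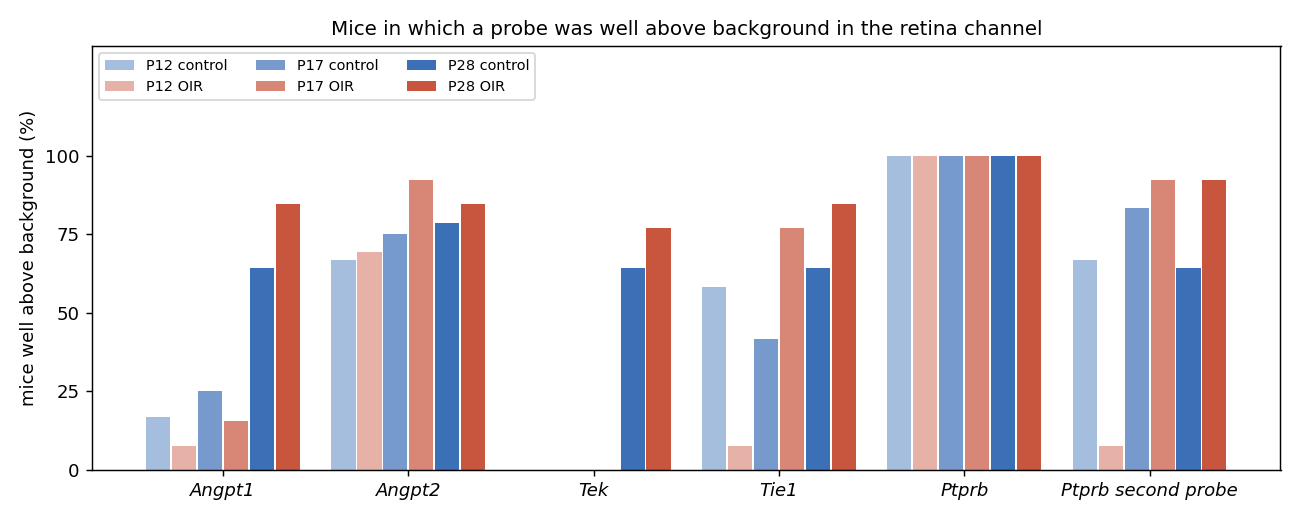
Share of mice, in percent, in which each probe was well above background in the retina channel, for control (blue) and OIR (red) mice and darker with age. *Ptprb* was detected in all mice, *Tek* on P28 only, and *Tie1* in 1 of 13 OIR mice on P12.

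On each day, none of the 5 members passed the adjusted test between OIR and control mice on the offset ratio. With limma and an adjusted p under 0.05, 0 of 5 members were called on P12, where 0.0233% of all probes were called. The same count held for P17, where 1.13% of probes were called, and for P28, where 0.0611% were. At an unadjusted p under 0.05 the counts were 2, 1 and 2 members, where 3.12%, 10.4% and 7.44% of all probes reached it. The deposited ratio called *Ptprb* on P12 (0.07% of probes were called) and *Angpt2* on P17 (2.64%), and none on P28 (0.203%). The retina channel alone called *Ptprb* on P12 (0.0718%), *Angpt2* and *Tie1* on P17 (3.11%), and none of the 5 by its brightest probe on P28 (0.296%). The calls below are therefore given with the scale on which they hold.

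**Figure D2:**
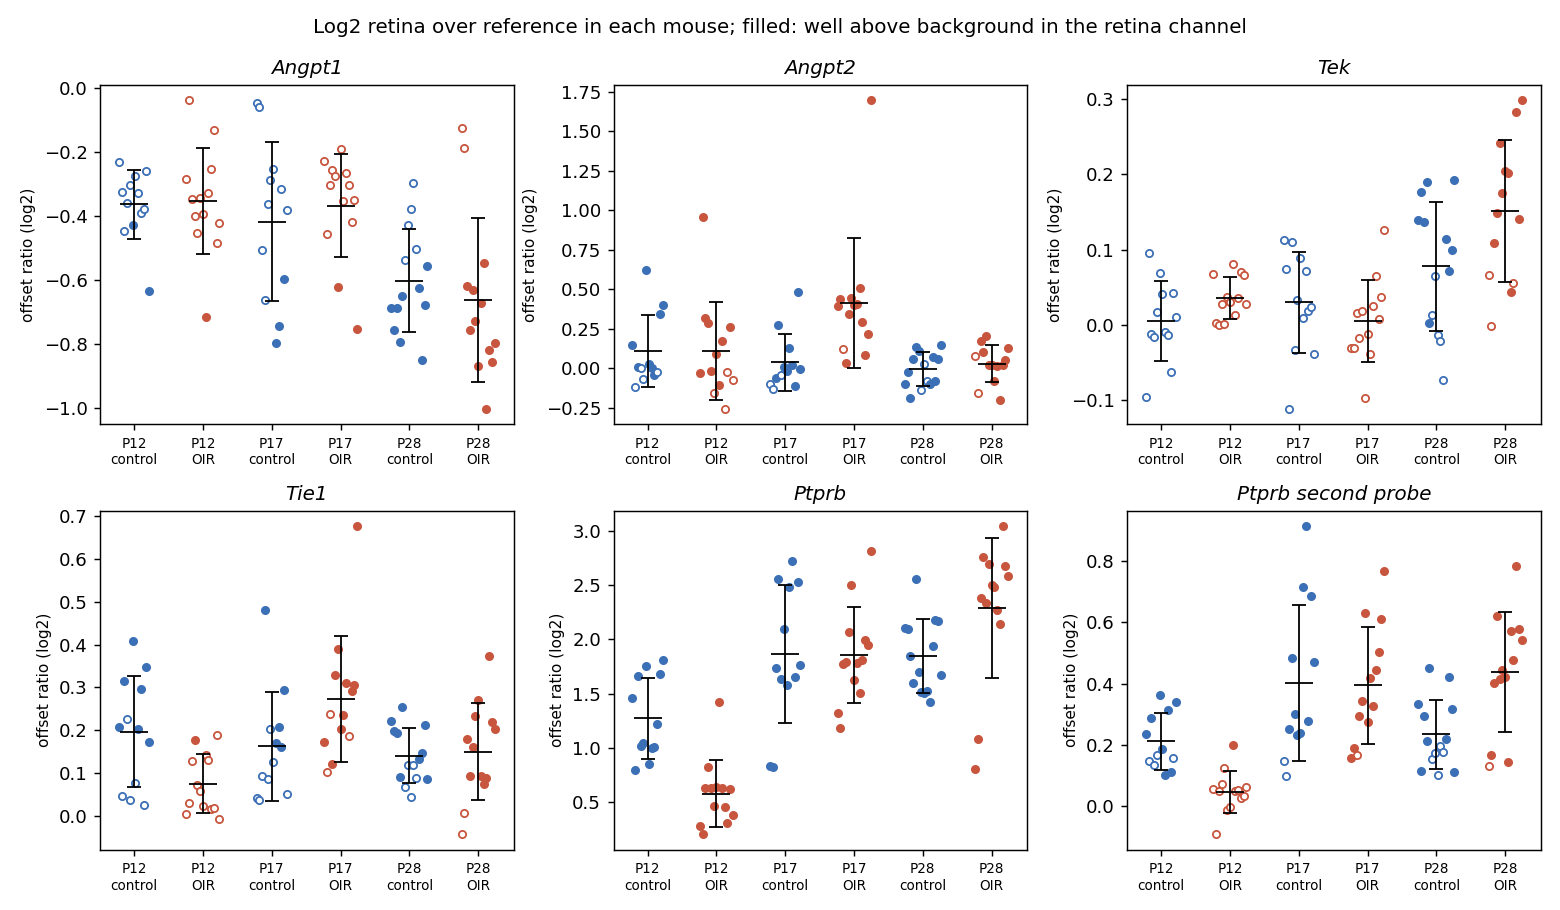
Offset ratio (log2 retina over reference) of each mouse in the 6 groups, with mean and SD as bars and filled points where the probe was well above background. The *Ptprb* values of OIR mice on P12 lie mostly below those of the controls, and those of *Angpt2* in OIR mice on P17 lie above the control median.

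The ligand *Angpt2* was higher in OIR than in control mice on P17, when neovascularization is at its peak in this model. In control mice its offset ratio on P17 was at the lowest -0.13, at the median -0.01 and at the highest 0.48, and in OIR mice 0.03, 0.39 and 1.69. All 13 OIR mice were above the control median and 2 above the highest control, so that the groups overlapped. The difference was 0.38 ± 0.13 (SE), a 1.30-fold higher ratio, and did not pass the adjusted test (limma, adjusted p = 0.205). OIR mouse 210 stood far above the others, and without it the difference was smaller, 0.27 ± 0.07, but passed (limma, adjusted p = 0.0398), with 1.46% of all probes called.

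On the deposited ratio, *Angpt2* rose on P17. Control mice ranged from -0.95 to 0.84 with a median of -0.01, and OIR mice from 0.43 to 3.101 with a median of 1.83, and 11 of 13 OIR mice lay above every control. The difference was 1.78 ± 0.26, or 3.44-fold, with an adjusted p of 1.01e-04 in limma. In the retina channel alone it was 0.71 ± 0.16 (limma, adjusted p = 0.0106). *Angpt2* was higher in OIR mice on 6 of the 6 slides that held both groups, for the offset and the deposited ratio, and on 5 of 6 for the retina channel. Of 15 alternatives, 9 called it, and all 15 had the same sign as the offset ratio.

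On P12 and P28 no scale called *Angpt2*. On P12 the offset ratio was at the median 0.00 in control and -0.02 in OIR mice, with a difference of 0.00 ± 0.11 and a 95% interval from -0.22 to 0.22. OIR mouse 31 stood apart there, with a log2 intensity of 10.93 in the retina and 9.09 in the reference, both the highest of the group. Without it the difference was -0.07 ± 0.08. On P28 the medians were 0.00 and 0.02, and the difference was 0.04 ± 0.04 with an interval from -0.05 to 0.12.

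*Angpt1* was dim in the retina on P12 and P17 and passed the adjusted test on no day. On P17 its offset ratio ranged in control mice from -0.80 to -0.05 with a median of -0.37, and in OIR mice from -0.75 to -0.19 with a median of -0.30. The ranges of the groups lay almost on top of each other. Its differences for P12, P17 and P28 were 0.01 ± 0.06, 0.05 ± 0.08 and -0.06 ± 0.08, with 95% intervals no wider than from -0.22 to 0.22. The sign differed between scales on P17 and P28, where the deposited ratio gave -0.25 and 0.38, and none of these values was called. It was well above background in the reference of 73 of the 77 arrays.

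**Figure D3:**
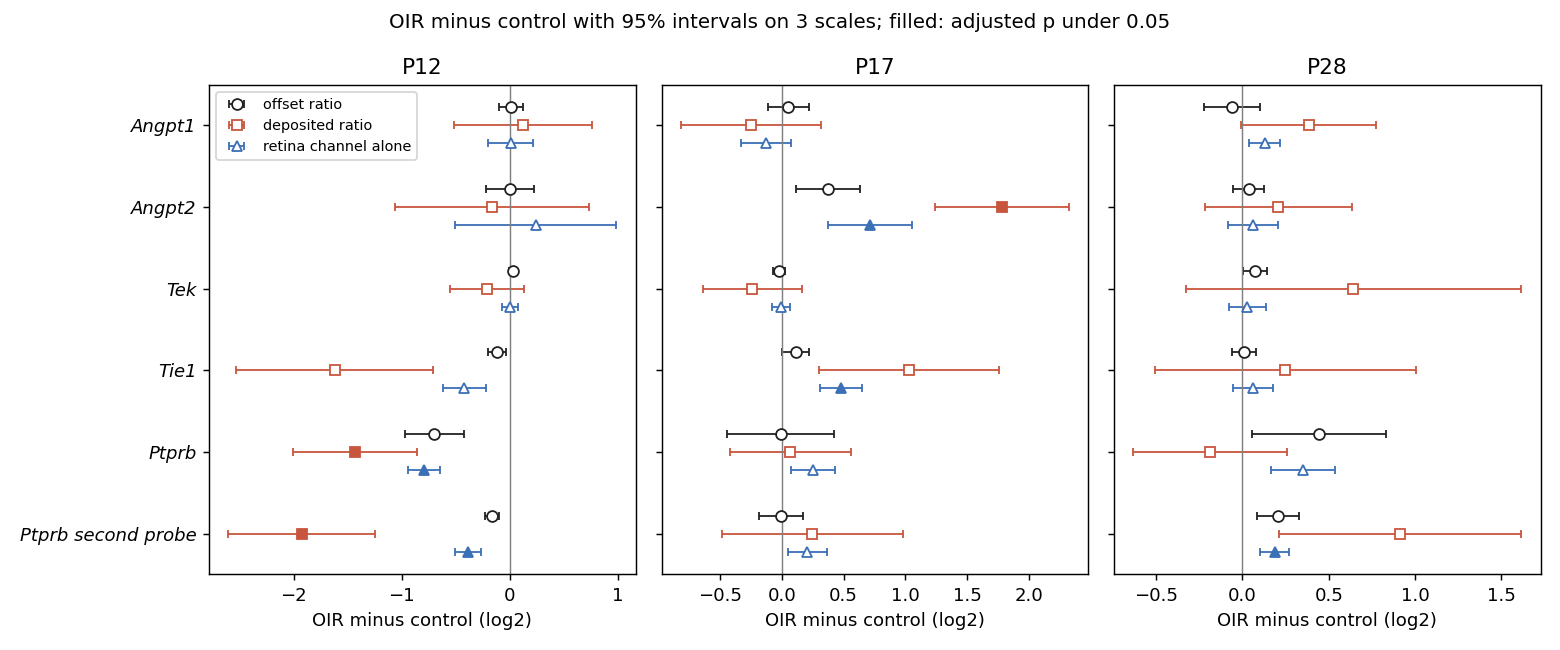
OIR minus control on P12, P17 and P28 for each probe, as log2 differences with 95% intervals, on the offset ratio (circles), the deposited ratio (squares) and the retina channel alone (triangles). Filled symbols passed the adjusted test: *Ptprb* on P12, *Angpt2* and *Tie1* on P17, and the second *Ptprb* probe on P12 and P28, each on at least 1 scale.

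Of the receptors, *Tie1* was lower in OIR mice on P12 and higher on P17. On P12 the offset ratio in control mice was 0.03 at the lowest, 0.20 at the median and 0.41 at the highest, and in OIR mice -0.01, 0.06 and 0.19. All 13 OIR mice were below the control median, and 5 were below every control. The difference was -0.12 ± 0.04 and did not pass (limma, adjusted p = 0.9997, unadjusted p = 0.00624). On the deposited ratio it was -1.62 ± 0.44 (limma, adjusted p = 0.550), with 1 of 13 OIR mice and no reference well above background. *Tie1* was lower in OIR mice on 7 of 7 slides on all 3 scales, but no alternative of 16 called it on P12.

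On P17 the same probe moved the other way. Control mice ranged from 0.04 to 0.48 with a median of 0.14, and OIR mice from 0.10 to 0.68 with a median of 0.24, and 11 of 13 OIR mice were above the control median. The difference of 0.11 ± 0.05 did not pass (limma, adjusted p = 0.482). In the retina channel alone, where 13 of 13 OIR mice were above the control median and 7 above every control, the difference of 0.48 ± 0.08 passed (limma, adjusted p = 6.28e-04). The deposited ratio gave 1.03 ± 0.35 (limma, adjusted p = 0.1501), which passed once slides were taken into account, at 1.18 ± 0.25 (limma, adjusted p = 0.0176, with 2.22% of all probes called). It was higher in OIR mice on 6 of 6 slides. On P28 the medians were 0.13 and 0.16 and the difference was 0.01 ± 0.04.

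*Tek* could not be compared on P12 and P17, since no mouse of either group was well above background, and no fold is given. On P28 the offset ratio of control mice ranged from -0.07 to 0.19 with a median of 0.09, and that of OIR mice from 0.00 to 0.30 with a median of 0.15. The higher values of OIR mice amounted to 0.07 ± 0.03 (limma, adjusted p = 0.665), and the groups overlapped, with 5 of 13 OIR mice above every control. The deposited ratio gave 0.64 ± 0.47 with an interval from -0.33 to 1.61. Within the last scan the differences were 0.05 on the offset ratio, 0.15 on the deposited ratio and -0.0074 in the retina channel. No scale or alternative called *Tek* between OIR and control mice.

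*Ptprb*, the phosphatase of Tie2, was lower in OIR mice on P12, at the end of hyperoxia, by the largest difference among the members on that day on the offset ratio. Its offset ratio in control mice was at the lowest 0.80, at the median 1.13 and at the highest 1.81, against 0.21, 0.62 and 1.42 in OIR mice. Of 13 OIR mice, 11 lay below every control. The difference was -0.70 ± 0.13, a 1.62-fold lower ratio with a 95% interval from -0.97 to -0.42, and just missed the threshold (limma, adjusted p = 0.0803).

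The retina channel alone separated the groups without overlap. Control mice ranged there from 7.63 to 8.46 and OIR mice from 7.01 to 7.51 on the log2 intensity scale. This difference was -0.79 ± 0.07, or 1.73-fold (limma, adjusted p = 3.45e-07), and 0.0718% of all probes were called on this scale. The deposited ratio gave -1.43 ± 0.28 (limma, adjusted p = 0.0398), and without OIR mouse 31 -1.31 ± 0.26, which no longer passed (limma, adjusted p = 0.0613). With the slide as a block, the offset ratio gave -0.59 ± 0.09 and passed (limma, adjusted p = 0.0155, with 0.0287% of all probes called), while the deposited ratio gave -1.19 ± 0.26 and did not (limma, adjusted p = 0.201). *Ptprb* was lower in OIR mice on 7 of 7 slides by the offset ratio and the retina channel and on 6 of 7 by the deposited ratio. Of 16 alternatives, 9 called it and all gave a lower value in OIR mice.

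The second *Ptprb* probe went the same way on P12. It was well above background in 8 of 12 control mice but in 1 of 13 OIR mice. Its offset ratio was 0.10 to 0.36 in control mice and -0.09 to 0.20 in OIR mice, with a difference of -0.16 ± 0.03 (limma, adjusted p = 0.113). By the deposited ratio the difference was -1.92 ± 0.33 and passed (limma, adjusted p = 0.00944), with 12 of 13 OIR mice below every control, though 1 of these 13 mice was well above background.

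**Figure D4:**
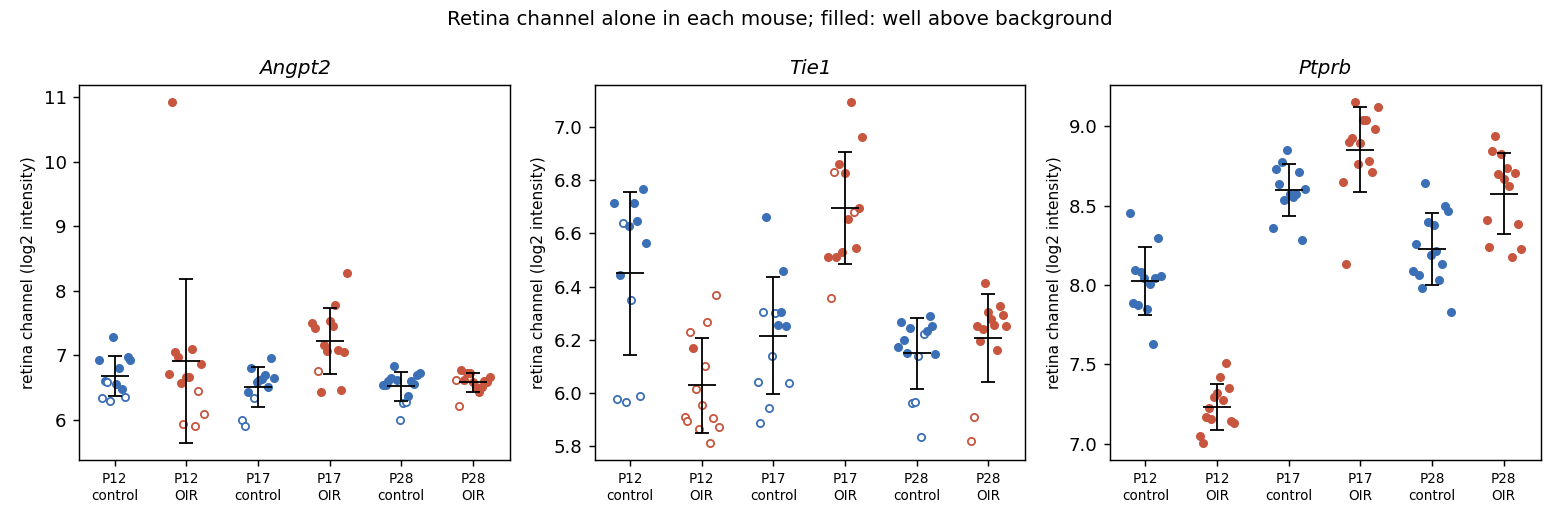
Log2 intensity of the retina channel alone for *Angpt2*, *Tie1* and *Ptprb* in each mouse of the 6 groups, with mean and SD as bars and filled points where the probe was well above background. On P12 the *Ptprb* values of OIR mice, 7.01 to 7.51, lie below all control values, and OIR mouse 31 stands apart for *Angpt2* at 10.93.

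On P17 *Ptprb* showed no difference that passed on any scale, and on P28 its offset ratio was higher in most OIR mice. The P17 medians were 1.75 in control and 1.79 in OIR mice, with a difference of -0.01 ± 0.21 and an interval from -0.45 to 0.42. Of 15 alternatives, 6 shared its sign. In the retina channel 12 of 13 OIR mice were above the control median and 8 above every control, by 0.25 ± 0.09 (limma, adjusted p = 0.137). On P28 control mice ranged from 1.42 to 2.56 with a median of 1.77, and OIR mice from 0.80 to 3.04 with a median of 2.48. The difference of 0.44 ± 0.19 did not pass (limma, adjusted p = 0.644), and it passed with the slide as a block, at 0.58 ± 0.10 (limma, adjusted p = 0.0176, with 0.219% of all probes called). The 2 lowest OIR values, 0.80 and 1.08, were those of the only OIR mice of P28 outside the last scan, and within the last scan the difference was 0.51. The deposited ratio ran against it with -0.19 ± 0.22, though within the last scan it was 0.05. By the retina channel OIR mice were higher by 0.35 ± 0.09 (limma, adjusted p = 0.118), where 7 of the 13 exceeded every control and 12 the control median. The second probe was higher in OIR mice by 0.20 ± 0.06 on the offset ratio and by 0.91 ± 0.34 on the deposited ratio, where over all mice the other probe was lower. In the retina channel its means were 6.41 in control and 6.59 in OIR mice, and 8 of 13 OIR mice exceeded every control. There it passed the adjusted test, with 0.296% of all probes called. Of 13 alternatives, 2 called it (limma, lowest adjusted p = 0.0377).

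The OIR effect of the members was then compared between days. No member passed on the offset ratio for any pair of days. For P17 against P12, 0.48% of all probes were called, for P28 against P17 0.278%, and for P28 against P12 0.0395%. At an unadjusted p under 0.05 there were 3, 2 and 2 members, against 4.86%, 14% and 6.19% of all probes. The effect on *Tie1* was higher on P17 than on P12 by 0.23 ± 0.06 (limma, adjusted p = 0.0818), and that on *Ptprb* was higher on P28 than on P12 by 1.14 ± 0.26 (limma, adjusted p = 0.0721).

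On the deposited ratio the OIR effect of 3 of the 5 members was higher at P17 than at P12, with 1.39% of all probes called. *Tie1*, dim in all but 1 of the 13 OIR mice of P12, differed by 2.65 ± 0.57 (limma, adjusted p = 0.00205), *Angpt2* by 1.95 ± 0.46 (limma, adjusted p = 0.00667) and *Ptprb* by 1.5002 ± 0.36 (limma, adjusted p = 0.00812). In the retina channel alone *Tie1* and *Ptprb* passed, with differences of 0.90 ± 0.12 and 1.05 ± 0.12, and 1.76% of all probes were called. *Tie1* passed in 9 of 16 alternatives, *Ptprb* in 6 and *Angpt2* in 4, all with the same sign as the offset ratio. For P28 against P12, *Ptprb* passed in 8 of 16.

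In control mice, which show the course of normal growth, *Ptprb* rose between P12 and P17 on several scales. Its offset ratio went from a median of 1.13 to 1.75, a change of 0.59 ± 0.19 that did not pass (limma, adjusted p = 0.1399). The deposited ratio changed by 0.88 ± 0.26 (limma, adjusted p = 0.0447, 2.57% of all probes called) and the retina channel by 0.57 ± 0.09 (limma, adjusted p = 2.05e-06, 3.18% called). No member was called on the offset ratio between P12 and P17, where 1.28% of all probes were, or between P17 and P28, where 13.4% were, and 1 member reached an unadjusted p under 0.05 in each. Of all probes, 8.21% and 26.5% did, so that 1 of 5 members for the later step is below the share of all probes. From P17 to P28 the scales disagreed for *Ptprb*, with -0.02 ± 0.18 on the offset ratio, -0.57 ± 0.25 on the deposited ratio and -0.37 ± 0.09 in the retina channel, of which the last passed (limma, adjusted p = 0.00105, 15.1% of all probes called). *Tek* was higher on P28 than on P17 by 0.93 ± 0.33 on the deposited ratio (limma, adjusted p = 0.0348, 19.7% of all probes called), but the bound that its dim P17 signal allows gave no fold above 1. The brighter arrays of P28 moved with this change, and their part in it was not tested.

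Ordered by their mean offset ratio, most neighboring groups of a member did not differ by a step that passed. For *Ptprb* the order was P12 OIR, P12 control, P28 control, P17 OIR, P17 control and P28 OIR, with means of 0.58, 1.28, 1.85, 1.86, 1.87 and 2.29. Only the step from P12 control to P28 control, 0.57 ± 0.18, passed in the model of all groups (limma, adjusted p = 0.0171, unadjusted p = 0.00282). The arrays of P28 were brighter, and the part of this in the step was not tested. The step from P12 OIR to P12 control, 0.70 ± 0.19, was larger and did not pass (limma, adjusted p = 0.694, unadjusted p = 3.86e-04). Each step was adjusted over all probes of its own pair of groups, so a pass depends on how many of them differ. For the second probe the step from P28 control to P17 OIR, 0.16 ± 0.06, was the only one that passed (limma, adjusted p = 0.0456). For *Angpt2* P17 OIR was at the top with 0.41, above P12 OIR with 0.11 (limma, adjusted p = 0.0663), and the other means lay between -0.01 and 0.11. *Tie1* ran from 0.08 in P12 OIR to 0.27 in P17 OIR mice, with no step that passed. *Angpt1* ran from -0.66 in P28 OIR to -0.35 in P12 OIR mice, also without one. Some groups that were not neighbors did differ. Within OIR mice, *Angpt1* changed from P12 to P28 by -0.31 ± 0.07 on the offset ratio (limma, adjusted p = 4.62e-04). The other scales ran the opposite way for *Angpt1* between these groups. Its mean deposited ratio went from -2.99 to -2.41 and its mean retina channel from 6.13 to 6.21. On P12, 1 of these 13 retinas had *Angpt1* clearly over background, against 11 of 13 on P28. The part of the brighter P28 arrays in this change was not tested. *Tie1* changed from P12 to P17 by 0.20 ± 0.04 (limma, adjusted p = 0.00141), and *Angpt2* from P17 to P28 by -0.38 ± 0.10 (limma, adjusted p = 8.20e-04). The share of all probes called was not counted for these steps and pairs, so these calls do not set the members apart from other probes. Between P17 and P28 in control mice, where it was counted, 13.4% of all probes were called. *Tek* was not ordered, since 4 of the 6 groups were at background.

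Markers of the endothelium were mostly lower in OIR mice on P12, as were the values of *Tie1* and *Ptprb*, and mostly higher on P17, as were those of *Tie1* but not the offset ratio of *Ptprb*. Of 15 endothelial markers, 14 were lower in OIR mice on P12 and 4 passed (*Egfl7*, *Cd34*, *Ramp2* and *Cd93*), with a median difference of -0.41 against -0.000555 over all probes. On P17, 12 were higher and 5 passed (*Egfl7*, *Cd34*, *Eng*, *Icam2* and *Cd93*), with a median of 0.28 against 0.000965 over all probes. On P28, 13 were higher with a median of 0.15, and none passed (limma). Their mean offset ratio was 0.20 to 0.97 in control and -0.11 to 0.24 in OIR mice on P12, and 0.15 to 0.91 and 0.56 to 1.496 on P17. Each of the 15 was well above background on some array. In whole retina, fewer endothelial cells and less RNA per cell cannot be told apart. Of 8 tip cell markers, none passed on P12 or P28 and 5 passed on P17, all higher (*Esm1*, *Apln*, *Pdgfb*, *Plvap* and *Unc5b*). Of 9 mural markers, *Abcc9* was lower on P12, *Cspg4* and *Notch3* were higher on P17 and none passed on P28. Of 5 measured horizontal cell markers, 5 rod markers and 3 lens markers, none passed on any day. On P17 *Gfap* of 6 astrocyte and Mueller cell markers, *Aif1* and *Csf1r* of 5 microglial markers and *Hba-a1* of 2 red blood cell markers were higher in OIR mice, *Rpe65* of 4 pigment epithelium markers was lower, and on P28 *Csf1r* was higher. The part of these cell types in the values of the members was not tested.

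Other genes of the pathway were taken from a list of 33, all of which were measured. None passed on P12 or P28 and 3 passed on P17, all higher in OIR mice, against 1.13% of all probes. At an unadjusted p under 0.05 there were 2 genes on P12, 11 on P17 and 2 on P28, against 3.12%, 10.4% and 7.44% of all probes. On P17, 23 of the 33 were higher in OIR mice and 10 lower, with a median difference of 0.08 against 0.000965 over all probes.

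The genes that rose were an integrin subunit, an adaptor and a transcription factor. *Itgb1* encodes the integrin beta 1 chain, which binds angiopoietins in cells with little Tie2, and was higher on P17 by 0.73 ± 0.13 (limma, adjusted p = 0.00206). *Tnip2* encodes a binding partner of the NF-kappa B inhibitor A20 that also binds Tie2, and was higher by 0.53 ± 0.08 (limma, adjusted p = 4.44e-04). *Ets1* encodes an ETS factor of endothelial and other cells, and was higher by 0.51 ± 0.08 (limma, adjusted p = 0.0002655). On the deposited ratio 5 genes passed on P17, with *Ets1* at 1.75, *Itgb1* at 1.502, *Tnip2* at 0.80, *Itgb3*, the integrin beta 3 chain, at 1.80 and *Shc1*, an adaptor of receptor kinases, at 0.53. On P12 *Ets1* was lower by 1.42 on this scale (SE 0.18, limma, adjusted p = 2.16e-04), but by only 0.15 on the offset ratio, which did not pass.

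The further ligands did not pass the test on the offset ratio. *Angpt4*, a further angiopoietin, was well above background in the retina of 14 of 77 mice, with differences of 0.02, 0.06 and -0.01 on the 3 days. *Svep1*, a large matrix protein that binds Tie1, was so in 31 mice and gave 0.08, 0.12 and -0.19. Of 5 kinase genes, none passed, and their median on P17 was -0.06. Of 9 transcription factor genes only *Ets1* passed, and of 5 junction and shedding genes none did. *Cdh5*, which encodes VE-cadherin, a further partner of VE-PTP, was lower on P12 by 0.30 and higher on P17 by 0.27, and the change between these days, 0.57 ± 0.12, passed (limma, adjusted p = 0.001745).

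**Figure D5:**
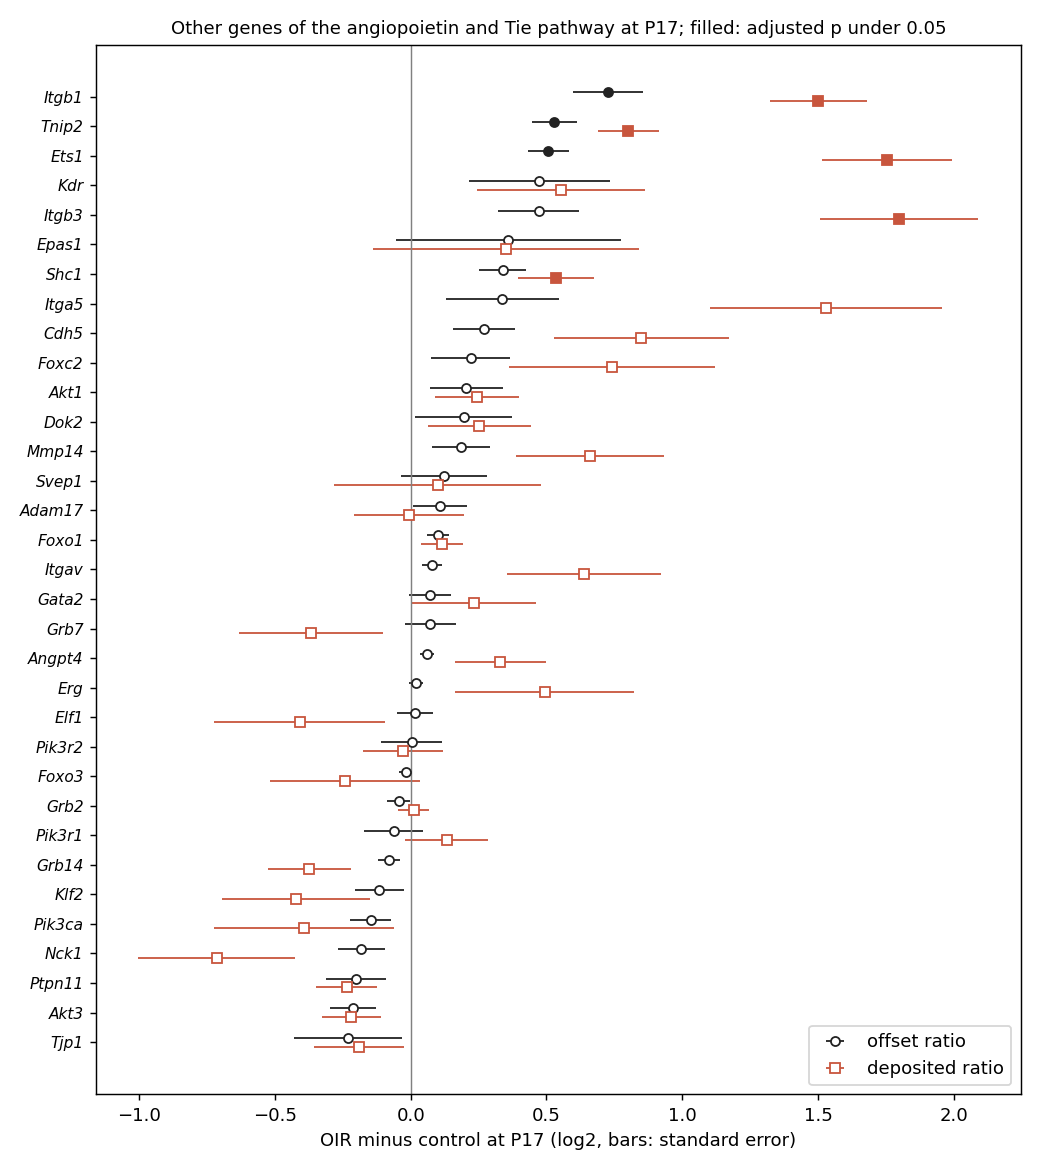
OIR minus control on P17 for the 33 other pathway genes, as log2 differences with standard errors, on the offset ratio (circles) and the deposited ratio (squares), filled where the adjusted test passed. *Itgb1*, *Tnip2* and *Ets1* passed on both scales, and *Itgb3* and *Shc1* on the deposited ratio.

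Across the 77 mice, with the group means taken out, the genes that varied most like *Tie1* depended on the scale. Its highest correlations on the offset ratio were with *Cldn5* (Pearson's r 0.83), *Rgs5* (0.82) and *Mmrn2* (0.81), out of 11888 genes. On the deposited ratio they were *Sox18* (0.80), *Pcdh12* (0.76) and *Amigo2* (0.76), and in the retina channel *Tsnax* (0.72), *Cntnap2* (0.72) and *Fam98a* (0.71). On the offset ratio *Ptprb* varied most like *Kcnj10* (0.92), *Ajm1* (0.92) and *Alk* (0.91), and its second probe like *Robo4* (0.83), *Abca8b* (0.83) and *Grrp1* (0.82). For *Angpt2* they were *Ctsc* (0.76), *Sox9* (0.74) and *Lama4* (0.74), for *Angpt1* *Mmp2* (0.92), *Dok1* (0.90) and *E2f2* (0.90), and for *Tek* *Podxl* (0.60), *Mef2d* (0.58) and *Homer2* (0.58).

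These values share the brightness of the arrays. How many probes an array had well above background correlated with the offset ratio of *Ptprb* at 0.80, of *Tie1* at 0.60 and of *Angpt1* at -0.80, but with their retina channel at 0.16, 0.45 and 0.08. With their deposited ratio it correlated at 0.19, 0.70 and 0.23. For the second *Ptprb* probe the values were 0.64 on the offset ratio and 0.715 on the deposited ratio, and for *Tek* 0.405 and 0.70. In the retina channel the genes most like *Ptprb* were *Ramp2* (0.56), *Cxcl12* (0.56) and *Robo4* (0.55). The endothelial list correlated with *Ptprb* at 0.81 on the offset ratio and 0.51 in the retina channel, and with *Tie1* at 0.80 and 0.61. This likeness was not particular to the endothelial list. On the same scales the horizontal cell list correlated with *Ptprb* at 0.855 and 0.167, and with *Tie1* at 0.70 and 0.42. The rod list correlated with *Tie1* at -0.32 and 0.52. On the offset ratio the mural and tip cell lists correlated with *Ptprb* at -0.52 and -0.56, but in the retina channel at 0.35 and 0.19. On the deposited ratio the values were 0.155 and -0.214. Between members, *Tie1* and *Ptprb* correlated at 0.74 on the offset ratio and 0.31 in the retina channel, and *Angpt1* and *Angpt2* at -0.21 and 0.48.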

How the data were processed

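Retinal RNA of 77 mice was hybridised with a reference RNA on 2-colour Agilent arrays. The deposited scanner files of the authors hold the intensity of each spot in both channels, its outlier and background flags and a log10 ratio, made with Agilent Feature Extraction 10.7.3.1 per the submitters' processing notes. A table of the authors holds log2 ratios of the processed signals. It matched log2 Cy3 over Cy5 for 100% of single-spot probes (tolerance 0.001), and the deposited log10 ratio matched log10 Cy5 over Cy3 for 100% of values other than 0. Column medians of the table ran from -0.127 to 0.00993.

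Median signals were background corrected (normexp, offset 50), normalized by loess within arrays with control and outlier spots at weight 0, turned to Cy3 over Cy5, and averaged over the spots of a probe without outlier spots (0.592% to 0.951% of spots). Groups were compared within each day with limma 3.58.1 (lmFit and eBayes) in R 4.3.3. Differences between days and ages came from 1 model of all 6 groups. P-values were adjusted by Benjamini-Hochberg over all 55681 probes and called under 0.05. A gene was represented by its brightest probe. Members and lists were chosen with earlier results of these data known. The genes named were all members, pathway genes and markers that were called, *Angpt4* and *Svep1*, and the 3 genes most correlated with each member among those well above background on at least 50% of arrays. The script was tested on simulated data. Arrays of a day lay on 11 slides in all, of which 7, 6 and 3 held both groups on P12, P17 and P28. The alternatives were the background correction, the deposited ratio, the retina channel alone, slide blocks, a single fit, moderation, array weights, a filter on dim probes, outlier spots kept and the mean of a gene's probes. The number of arrays limits the precision. Different mice are the replicates, and the highest correlation between 2 arrays was 0.941, so that none was a copy of another.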

Additional observations from a re-analysis of the deposited data

How the results depend on the processing

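The counts of members called on the offset ratio, 0 of 5 in each comparison, changed with the scale and with the model. On P12 the count was 1 in 9 of 16 alternatives, among them the deposited ratio, the retina channel alone the slide as a fixed or random block, array weights, the filter on dim probes and the mean of a gene's probes. On P17 it was 1 in 6 of 15, among them the deposited ratio, the single fit over all groups and the fit without OIR mouse 210, and 2 in 3, namely the retina channel alone and a slide block on either the deposited ratio or the retina channel. On P28 it was 1 with the slide as a fixed block and 1 with a slide block on the retina channel. The fits with a call had 0.0266% to 0.0952% of all probes called on P12, 1.22% to 3.62% on P17 and 0.219% to 0.4% on P28. Across days the count ran up to 3 for P17 against P12 (1.35% to 2.01% of all probes), to 1 for P28 against P17 (0.576% to 1.04%) and to 2 for P28 against P12 (0.147% to 0.289%). In control mice it ran to 2 from P12 to P17 (6.01%) and to 2 from P17 to P28 (15.1% to 34.1%). With array weights, which called 34.1%, 2 of 5 members is near the share of all probes. Of the other pathway genes, the count ran from 0 to 3 on P12, from 3 to 6 on P17 and from 0 to 1 on P28. Over the same fits, 0.0144% to 0.0952%, 1.08% to 4.07% and 0.0503% to 0.4% of all probes were called on these days. In the single fit over all groups the *Ptprb* difference on P12 had an adjusted p of 0.694 in limma, and with no intensity added 0.863. The fits with a block on the deposited ratio or the retina channel and those without mice 31 and 210 were chosen after seeing the data. The cause of these shifts was not tested.

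In 95 cases a single value changed sign, none of them called on either side, and 83 of these had a value under 0.1 in size on the offset ratio. All values that follow are log2 differences. With no intensity added, *Angpt1* was -0.081 (P12), -0.14 (P17), 0.24 (P28), -0.058 (P17 against P12), 0.38 (P28 against P17), 0.32 (P28 against P12) and 0.062 (control P12 to P17), *Angpt2* was -0.18 (P12), *Ptprb* was 0.14 (P17) and -0.14 (P28 against P17), *Tie1* was -0.50 (P28) and 0.19 (control P12 to P17), *Tek* was -0.057 (P28 against P12). Without background subtraction, *Angpt1* was -0.0035 (P12), *Ptprb* was 0.033 (P17). With the deposited ratio, *Angpt2* was -0.17 (P12) and 0.24 (control P17 to P28), *Tek* was -0.21 (P12), *Angpt1* was -0.25 (P17), 0.38 (P28), -0.37 (P17 against P12), 0.64 (P28 against P17), 0.26 (P28 against P12) and 0.34 (control P12 to P17), *Ptprb* was 0.067 (P17), -0.19 (P28) and -0.25 (P28 against P17), *Tie1* was 0.099 (control P17 to P28). In the retina channel alone, *Tek* was -4.3e-05 (P12) and -0.0033 (control P12 to P17), *Angpt1* was -0.13 (P17), 0.13 (P28), -0.13 (P17 against P12), 0.26 (P28 against P17), 0.12 (P28 against P12) and 0.10 (control P12 to P17), *Ptprb* was 0.25 (P17), *Angpt2* was -0.18 (P28 against P12) and 0.0099 (control P17 to P28). With the slide as a fixed block, *Angpt1* was -0.058 (P12), -0.011 (P17) and 0.014 (P28 against P12), *Angpt2* was -0.044 (P12) and -0.0087 (P28 against P12), *Ptprb* was 0.11 (P17). With the slide as a random block, *Angpt1* was -0.0077 (P12), *Angpt2* was -0.0052 (P12), *Ptprb* was 0.041 (P17). With array weights, *Ptprb* was 0.030 (P17) and 0.16 (control P17 to P28), *Angpt2* was -0.036 (P28 against P12) and 0.018 (control P17 to P28), *Tie1* was 0.0090 (control P17 to P28). With a slide block on the deposited ratio, *Angpt1* was -0.022 (P12), -0.35 (P17), 0.20 (P28), -0.15 (P17 against P12), 0.43 (P28 against P17), 0.29 (P28 against P12), 0.12 (control P12 to P17) and 0.089 (control P17 to P28), *Angpt2* was -0.20 (P12) and 0.22 (control P17 to P28), *Tek* was -0.13 (P12), 0.23 (P17 against P12) and -0.17 (control P12 to P17), *Ptprb* was 0.14 (P17) and -0.14 (P28 against P17), *Tie1* was -0.099 (P28). With a slide block on the retina channel, *Angpt1* was -0.050 (P12), -0.041 (P17), 0.018 (P28), -0.0064 (P17 against P12), 0.023 (P28 against P17), 0.016 (P28 against P12) and 0.028 (control P12 to P17), *Angpt2* was -0.056 (P12), -0.00057 (P28), -0.33 (P28 against P12) and 0.057 (control P17 to P28), *Ptprb* was 0.23 (P17), *Tek* was 0.010 (P17 against P12) and -0.026 (control P12 to P17). Without OIR mouse 31 of P12, *Angpt1* was -0.016 (P12), *Angpt2* was -0.069 (P12). With the deposited ratio and without OIR mouse 31, *Angpt1* was -0.0072 (P12), -0.25 (P17 against P12), 0.64 (P28 against P17), 0.39 (P28 against P12) and 0.34 (control P12 to P17), *Angpt2* was -0.23 (P12) and 0.24 (control P17 to P28), *Tek* was -0.21 (P12), *Ptprb* was -0.25 (P28 against P17), *Tie1* was 0.099 (control P17 to P28).

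No paired analysis was possible because mouse numbers are unique and no number is shared between groups. The signal over background limits *Tek* on P12 and P17, *Angpt1* on both days and *Tie1* in OIR mice on P12, where most retinas were not well above background.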
